A study of Homo sapiens with 12 samples.

Results

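The 6 libraries described here are the vehicle controls of a study on Molidustat, an inhibitor of the HIF prolyl hydroxylases, in Huh7 cells. They were chosen by their labels: 3 libraries from cells kept for 24 h with DMSO and 3 from cells kept for 48 h with DMSO, of 12 libraries in all. The other 6 libraries came from cells given 25 µM Molidustat in the same solvent for 24 h or 48 h, with 3 libraries at each time, and share no library with the comparison made here. Huh7 is an established line from a human hepatocellular carcinoma, 1 line with no genetic change made to it here. It was grown in DMEM rich in glucose with fetal calf serum and seeded in plates with DMSO as the only addition, so that the DMSO libraries hold no comparison of DMSO with untreated cells. The comparison of 48 h with 24 h measured how the transcriptome of the vehicle-treated cells differed between these culture times, the baseline against which a treatment would be read.

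RNA was measured by 3′ sequencing, in which reads come from the 3′ end of each transcript, as counts of reads per gene. The counts on genes were 4033489, 2462623 and 4744982 in replicates 1, 2 and 3 at 24 h and 6856097, 1499273 and 9179389 in replicates 1, 2 and 3 at 48 h. Levels are given in CPM, counts relative to the library size after TMM scaling, always in the order of replicates 1, 2 and 3. Sources differ on whether the 3 replicates of a group were separate cultures or separate RNA extractions, so that p-values measure the spread between these samples, which may be technical. In such bulk samples, fewer cells of a kind and less RNA per cell cannot be told apart.

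Hepatoma cells keep part of the program of the hepatocyte, which secretes most plasma proteins, makes cholesterol and fatty acids and takes up glycoproteins through surface receptors. Besides this program, such cells run gene programs that answer to their surroundings: the hypoxia-inducible genes driven by the HIF transcription factors, the lipid synthesis genes driven by SREBP factors, the YAP and TEAD target genes that follow cell spreading and contact, and the chemokine genes driven by NF-κB. The density that the cultures had reached and the glucose and oxygen left in the medium at each time are not given in the sources used here.

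All 6 libraries carried the hepatoma identity that their label gives. The 16 hepatocyte or hepatoma markers examined had counts in every library, with summed levels of 17665, 18151 and 21134 CPM at 24 h and 19485, 10848 and 19878 CPM at 48 h. AFP, the fetal plasma protein that many hepatocellular carcinomas re-express, was the most abundant of them, at 5295, 6017 and 7097 CPM at 24 h and 7669, 3908 and 6528 CPM at 48 h. Replicate 2 at 48 h was the lowest library on both measures. Of 7 cholangiocyte or progenitor markers, 4 had counts in every library, led by SOX9, a transcription factor of bile duct and progenitor cells, at 329, 282 and 452 CPM at 24 h and 289, 1048 and 305 CPM at 48 h. Markers of cells that the line should not hold were near or at 0. Of 8 endothelial markers, CDH5, CLEC4G, KDR, TEK and VWF had no count in any library, and the list summed to 0, 3.08 and 1.65 CPM at 24 h and 3.39, 2.13 and 3.0 CPM at 48 h. Of 9 fibroblast or stellate markers, ACTA2 and DCN had no count, and RGS5, the most abundant, reached at most 16.3 CPM. Of 9 leukocyte markers, CD163, CD3E, CD79A, MARCO and MS4A1 had no count, whereas LYZ, which encodes lysozyme, was at 232, 157 and 183 CPM at 24 h and 101, 131 and 137 CPM at 48 h, nearly all of the summed level of that list. LYZ had lower levels in all 3 libraries at 48 h, for a log2 fold change of -0.66 ± 0.29 without replicate 2, not called. COL3A1, a fibroblast collagen, had no count at 24 h and 20, 0 and 19 counts at 48 h. What part these few transcripts have in the results was not tested.

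The 20 genes with the largest mean share of counts over the 6 libraries were FTL, MARCKS, AFP, PSMB4, MT-ATP6, MT-ND2, NUCKS1, YWHAE, MT-RNR2, HNRNPH1, SET, EBP, ACTB, HMGCS1, UBB, IGF2, MT-CO2, MT-ND4, SCD and TPI1. In 9 of them (MARCKS, PSMB4, NUCKS1, YWHAE, HNRNPH1, SET, HMGCS1, IGF2 and SCD) replicate 2 at 48 h lay more than 2 log2 units above the mean of the other libraries of its time. Ranked over the other 5 libraries, 17 of the 20 remained, without HMGCS1, IGF2 and SCD. FTL, the light chain of the iron store ferritin, took 2.12, 1.91 and 1.86% at 24 h and 1.82, 0.818 and 1.97% at 48 h, a mean of 1.75% of all counts on genes. Its share in replicate 2 at 48 h was the lowest of the 6. HMGCS1, which makes the precursor of mevalonate for cholesterol synthesis, took 0.178, 0.174 and 0.307% at 24 h and 0.170, 1.28 and 0.286% at 48 h. MARCKS, a substrate of protein kinase C at the plasma membrane, took 0.409, 0.377 and 0.456% at 24 h and 0.326, 1.79 and 0.411% at 48 h. For both genes, replicate 2 at 48 h lay far above the other 5 libraries. TPI1, a glycolytic enzyme, was less uneven, at 0.285, 0.279 and 0.196% at 24 h and 0.335, 0.212 and 0.348% at 48 h.

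Replicate 2 at 48 h stood apart from the other libraries in its make-up. Of the reads its file lists, 50.4% fell on no annotated gene, against 19.4% to 25.2% in the other 5 DMSO libraries and 17.1% to 25.6% in the other 11 libraries of the series. Counts from long non-coding RNA genes made up 4.23% of its counts on genes, against 1.87% to 2.45%, and transcripts of the mitochondrial genome made up 0.969%, against 2.54% to 3.80% in the other 5 DMSO libraries. Genes spanning over 100 kb took 14.7% of its counts, against 10.4% to 11.3%, and genes spanning under 10 kb took 20.1%, against 29.5% to 32.1%. Thus a larger share of its listed reads lay outside annotated genes. Within its counts on genes, a larger share came from long genes and from long non-coding RNA. Its 20 most counted genes held 18.6% of its counts, against 8.49% to 10.7%, and its TMM factor was 0.629, against 1.02 to 1.08. Its sample quality weight in limma-voom was 0.298, the lowest of the 12, against 0.418 to 2.05 in the other 11.

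Across genes, log CPM of replicate 2 at 48 h correlated with the other 5 DMSO libraries at r = 0.737 to 0.782. Those 5 correlated with each other at 0.893 to 0.956, with replicates 1 and 3 at 48 h, also the deepest of the 6, the closest pair. The 24 h libraries correlated with each other at 0.893 to 0.907. Their r with replicates 1 and 3 at 48 h was higher, at 0.912 to 0.929, so the libraries did not group by time. These r values are across genes, which are not independent replicates, and replicate 2 was also the shallowest of the 6 libraries. Of 6798 genes with a mean of at least 20 CPM in the other 5 DMSO libraries, 30 had no count in replicate 2, where 20 CPM is worth 18.8 counts. AGPAT5, an acyltransferase of phospholipid synthesis, was among them at 41.6, 34.3 and 33.9 CPM at 24 h and 40.0, 0 and 41.9 CPM at 48 h. In the other direction, ZNF121, a zinc finger gene, was at 36.1, 48.9 and 77.1 CPM at 24 h and 56.4, 1115 and 43.6 CPM at 48 h. The other 5 libraries lay close together for AGPAT5 and less so for ZNF121, and for both genes replicate 2 alone stood apart. Of 9038 genes with a mean of at least 10 CPM, 1026 (11.4%) were over 2 log2 units above the mean of replicates 1 and 3 at 48 h in replicate 2, and 763 (8.44%) were over 2 log2 units below it. Each library at 24 h was that far from the mean of the other 2 of its time, in either direction, in 75 to 106 of these genes. Levels are therefore given for every library, calls with and without this one, and a log2 fold change or list count given alone is from the fit without it. In that fit both libraries at 48 h were deeper (6856097 and 9179389 counts on genes) than every library at 24 h (2462623 to 4744982). They also had more genes with a count, 19687 and 20856 against 16005 to 18393. Depth and time thus cannot be told apart there, above all for genes without counts at 24 h.

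Few genes passed the test of the difference between 48 h and 24 h. A call needed an adjusted p below 0.05 (edgeR, quasi-likelihood, Benjamini-Hochberg over every gene tested) together with a log2 fold change larger than 1 in size. With all 12 libraries in the fit, 14274 genes were tested, 0 were called higher (0.0%) and 1, CXCL8, was called lower (0.00701%). Without replicate 2 at 48 h, 15253 genes were tested, 0 were called higher (0.0%), and 2, CXCL8 and CXCL1, were called lower (0.0131%). DESeq2 called more genes, 30 higher (0.193%) and 8 lower (0.0515%) of 15538 with all libraries, and 10 higher (0.0688%) and 8 lower (0.0551%) of 14525 without replicate 2. Where no tool is named, a call or its absence refers to edgeR with TMM scaling in these fits, with all libraries and without replicate 2.

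Below the threshold, the balance of directions depended on replicate 2 and on the fit. At an unadjusted p under 0.05, edgeR had 965 genes higher (6.76%) and 197 lower (1.38%) with all libraries, and 441 higher (2.89%) and 173 lower (1.13%) without it. Also without it, DESeq2 had 413 higher and 330 lower at that p, and edgeR on the DMSO libraries alone had 378 and 330. The shares of all genes given beside the lists below are those of the first 2 fits. A positive log2 fold change was found for 51.6% and 52.4% of the genes tested, and the median over all genes was 0.02 in both fits. The libraries of the 2 times did not overlap, all at 48 h above those at 24 h, for 821 genes (5.75%) with all libraries and 2045 (13.4%) without replicate 2. They did not overlap in the lower direction for 884 (6.19%) and 1447 genes (9.49%). With fewer libraries at 48 h such separation arises more often with no change, so these shares cannot be compared between the fits. With 3 libraries against 3, an exact two-sided permutation test of a single gene cannot go below p = 0.1. The 20 genes with the smallest unadjusted p without replicate 2 were listed by a rule added after the data were seen. Of these 20 genes, 15 were higher at 48 h and 5 lower, 2 were called by edgeR and 14 by DESeq2, and the adjusted p of the other 18 in edgeR ran from 0.108 to 0.484.

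**Figure D1:**
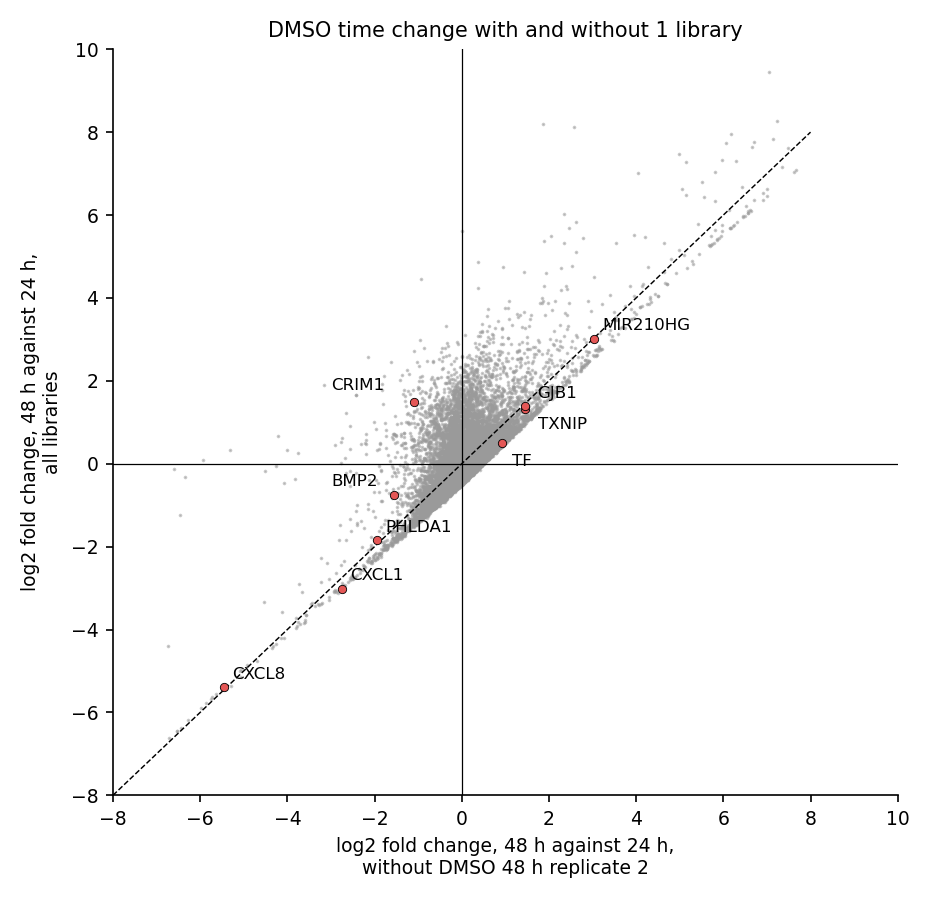
Difference between 48 h and 24 h with DMSO, fitted with all libraries (y axis) against the fit without DMSO 48 h replicate 2 (x axis), both as edgeR log2 fold changes, with 1 grey point per gene tested in both fits. Red points are named genes; CXCL8 and CXCL1 lie near the dashed line of equal values, and CRIM1 lies at 1.48 on the y axis and -1.09 on the x axis. Values beyond about 5 in either direction belong to genes with counts near 0 in one group, and their size depends on the prior count.

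The genes that passed the test were CXCL8 and CXCL1, chemokines of the CXC family that recruit neutrophils. CXCL8 (interleukin 8; ENSG00000169429, chr4:73740519-73743716) was at 19.3, 32.0 and 22.5 CPM at 24 h and 0.271, 1.06 and 0.723 CPM at 48 h, from 84, 83 and 109 counts and 2, 1 and 7 counts. The highest library at 48 h was far below the lowest at 24 h. CXCL8 fell by 5.39 ± 0.63 on the log2 scale with all libraries (SE, n = 3 and 3; edgeR adjusted p = 0.00409) and fell by 5.46 ± 0.65 without replicate 2 (n = 3 and 2; edgeR adjusted p = 0.00188). All 12 edgeR fits that left out 1 library each called it. It was not called by limma-voom (limma adjusted p = 0.118), nor by edgeR with the 6 DMSO libraries alone (adjusted p = 0.322) or with counts thinned to the smallest library (adjusted p = 0.093). CXCL1 (ENSG00000163739, chr4:73869393-73871308) was at 42.0, 49.7 and 37.4 CPM at 24 h and 4.07, 1.06 and 8.37 CPM at 48 h, from 183, 129 and 181 and 30, 1 and 81 counts, again with no overlap between times. Its log2 fold change was -3.01 ± 0.46 with all libraries (edgeR adjusted p = 0.06), not called, and it fell by 2.74 ± 0.41 without replicate 2 (edgeR adjusted p = 0.0208). Of the 12 fits that left out 1 library, 2 called it. The call without replicate 2 was lost with the other 5 DMSO libraries alone (edgeR adjusted p = 0.241) and with the replicate number as a block (edgeR adjusted p = 0.0784). With all libraries in, it was called by edgeR with total counts (adjusted p = 0.0452), by limma-voom (limma adjusted p = 0.014) and by DESeq2 (adjusted p = 1.14e-06), so that its call rests on the libraries, the scaling and the method.

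The other chemokines gave no call. CXCL5 was at 14.9, 14.3 and 31.8 CPM at 24 h and 6.91, 0 and 2.79 CPM at 48 h, with every library at 48 h below every one at 24 h and a log2 fold change of -2.06 ± 0.59 without replicate 2 (edgeR adjusted p = 0.83). CXCL2 was at 5.05, 9.24 and 7.23 CPM at 24 h and 2.58, 0 and 4.24 CPM at 48 h, also without overlap. CXCL1, CXCL2 and CXCL3 are close paralogs, and CXCL5 and CXCL6 are another such pair, so reads could have been split or lost between them. CCL20, a chemokine for CCR6-bearing lymphocytes, was better counted, at 138, 217 and 191 CPM at 24 h and 109.8, 66.0 and 145 CPM at 48 h, and its replicate 3 at 48 h lay above the lowest library at 24 h. CXCL16, a membrane-bound chemokine, went the other way, at 26.9, 30.0 and 24.6 CPM at 24 h and 40.4, 43.6 and 30.7 CPM at 48 h, for a log2 fold change of 0.42 ± 0.39. The chemokine list was added after results of these data were known and is no independent evidence of a direction. Of its 11 members tested, 2 had a positive log2 fold change, against 52.4% of all genes, 3 had an unadjusted p under 0.05 and all of those were lower (1.13% of all genes), and the median was -1.03, against 0.02 over all genes. CCL2 had no count in any of the 6 libraries.

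Windows from chemokine promoters are shown because most of those examined hold the letters of a known NF-κB element. The letters GGAATTTCC (or GGAAATTCC on the other strand, searched on both) are those of the κB element known from the CXCL8 promoter. They occur in 162 of 35116 RefSeq promoters of GRCh38.p14 (0.461%), each taken from 250 bases before to 50 after a gene's start. Of 12 chemokine genes listed, 9 have a promoter in that table and 7 of these hold the letters, shown in capitals within 29 bases read 5′ to 3′ on the gene's strand (CXCL8, the source of the letters, is 1 of the 7):
CXCL8: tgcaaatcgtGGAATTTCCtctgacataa
CXCL1: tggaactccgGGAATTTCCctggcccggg
CXCL2: tggagctccgGGAATTTCCctggcccggg
CXCL3: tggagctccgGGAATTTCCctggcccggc
CXCL5: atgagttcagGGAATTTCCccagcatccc
CXCL6: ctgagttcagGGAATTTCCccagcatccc
CXCL10: aggagcagagGGAAATTCCgtaacttgga
The windows lie at chr4:73740468-73740496 (plus strand) for CXCL8, chr4:73869305-73869333 (plus) for CXCL1, chr4:74099254-74099282 (minus) for CXCL2, chr4:74038749-74038777 (minus) for CXCL3, chr4:73998749-73998777 (minus) for CXCL5, chr4:73836579-73836607 (plus) for CXCL6 and chr4:76023655-76023683 (minus) for CXCL10. Beyond the capitals, the windows of CXCL1, CXCL2 and CXCL3 resemble each other closely, as do those of CXCL5 and CXCL6. The match is a description of these letters and not of a bound site. CXCL10, an interferon-inducible chemokine whose letters lie on the opposite strand, was at 3.44, 0 and 2.07 CPM at 24 h and 3.93, 0 and 6.51 CPM at 48 h, with replicates 1 and 3 at 48 h above the 24 h libraries and replicate 2 at 0.

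Other genes that NF-κB is known to drive did not pass the test. IL32, a cytokine, was at 25.0, 19.6 and 26.0 CPM at 24 h and 7.46, 4.26 and 10.4 CPM at 48 h, lower in all 3 libraries of that time, for a log2 fold change of -1.37 ± 0.42 (edgeR adjusted p = 0.88). NFKBIA, the inhibitor that NF-κB induces against itself, was at 107, 158 and 145 CPM at 24 h and 96.0, 26.6 and 106 CPM at 48 h and also did not overlap, with a log2 fold change of -0.41 ± 0.26. BIRC3, an inhibitor of apoptosis, went the other way, with 0, 0 and 0 counts at 24 h and 6, 0 and 16 counts at 48 h. Against the floor of 3 counts over the 24 h group, it was at least 3.23-fold higher at 48 h, and at least 4.85-fold higher without replicate 2 (unadjusted p = 0.0237 in edgeR, not called). The list of NF-κB response genes, likewise added after results were known, had a median of -0.41 over 11 genes tested, 4 of them positive, with 1 higher, BIRC3, and 1 lower at an unadjusted p under 0.05, against 2.89% and 1.13% of all genes. With all libraries, 2 were higher and 2 lower, against 6.76% and 1.38% of all genes.

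Most hypoxia-inducible genes had a positive log2 fold change, without a call by edgeR with all libraries or without replicate 2. EPO, the hormone erythropoietin and a classical HIF target of liver and kidney (ENSG00000130427, chr7:100720468-100723700), had 0, 0 and 0 counts at 24 h and 19, 8 and 56 counts at 48 h, or 2.58, 8.52 and 5.79 CPM. No read was seen in any library at 24 h and some were seen in all 3 at 48 h. Against a floor of 3 counts over the 24 h group (0.254 CPM, counting error only), it was at least 22.1-fold higher at 48 h, and at least 16.4-fold higher without replicate 2. Its edgeR adjusted p was 0.103 with all libraries and 0.108 without replicate 2, and its DESeq2 adjusted p was 0.00257 without replicate 2. EPO was called higher by edgeR with total counts (adjusted p = 0.0449), with no filter on low counts and without replicate 1 at 48 h (adjusted p = 0.0408). MIR210HG, the host transcript of the hypoxia-induced miR-210, was at 2.76, 0 and 0.413 CPM at 24 h and 6.78, 9.58 and 12.1 CPM at 48 h, with the highest library at 24 h below the lowest at 48 h. Its log2 fold change was 3.03 ± 0.60 without replicate 2 (edgeR adjusted p = 0.233; DESeq2 adjusted p = 0.000989) and 3.02 ± 0.64 with all libraries. The size and the call varied with replicate 1 at 24 h, the highest library of that time. Leaving out that library alone, the log2 fold change was 5.04 and the gene was called (edgeR adjusted p = 0.0243). Leaving out the highest 24 h library raises the value by construction, and that fit kept replicate 2 at 48 h. MXI1, an antagonist of MYC and a HIF target, was at 9.19, 12.7 and 9.09 CPM at 24 h and 23.2, 63.9 and 31.3 CPM at 48 h, also without overlap, with a log2 fold change of 1.44 ± 0.34. TXNIP, the thioredoxin-interacting protein that responds to glucose and restrains its uptake, was at 9.42, 9.24 and 7.85 CPM at 24 h and 23.6, 18.1 and 24.0 CPM at 48 h, where the 3 libraries of each time lay close together and apart from those of the other time. Its log2 fold change was 1.46 ± 0.29 without replicate 2 (edgeR adjusted p = 0.233).

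The list of hypoxia-inducible genes had 28 members tested, of which 25 had a positive log2 fold change, with a median of 0.50 against 0.02 over all genes. At an unadjusted p under 0.05, 6 were higher and 0 lower, against 2.89% and 1.13% of all genes. BNIP3L, a mitophagy receptor, was at 119, 60.5 and 99.6 CPM at 24 h and 169, 58.6 and 142 CPM at 48 h, and SPAG4, a HIF-induced protein of the nuclear envelope, at 9.88, 2.7 and 3.51 CPM at 24 h and 11, 7.45 and 10.7 CPM at 48 h. For both, replicates 1 and 3 at 48 h were above all libraries at 24 h and replicate 2 was not. VEGFA, the angiogenic growth factor, was at 39.5, 34.7 and 35.1 CPM at 24 h and 35.0, 38.3 and 43.8 CPM at 48 h, with overlap and a log2 fold change of 0.14 ± 0.29. Among 8 genes of the HIF subunits, prolyl hydroxylases and VHL, none had an unadjusted p under 0.05 and the median was -0.08. HIF1A, the oxygen-regulated subunit, was at 133, 82.4 and 109 CPM at 24 h and 121, 359 and 129 CPM at 48 h, and only replicate 2 lay clearly outside the other 5 libraries.

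Glycolytic enzymes, many of them HIF targets, mostly had positive values too. LDHA, which turns pyruvate into lactate, was at 244, 249.99 and 239 CPM at 24 h and 499, 214 and 481 CPM at 48 h. Replicates 1 and 3 at 48 h were far above all 3 libraries at 24 h, and replicate 2 was the lowest of the 6. The log2 fold change of LDHA was 1.03 ± 0.25 without replicate 2 (unadjusted p = 0.000736, not called) and 0.71 ± 0.37 with it. PFKL, the liver phosphofructokinase, was at 59.5, 32.0 and 36.8 CPM at 24 h and 84.0, 39.4 and 86.5 CPM at 48 h, for a log2 fold change of 1.02 ± 0.31, and ALDOC, an aldolase, at 0, 3.08 and 2.48 CPM at 24 h and 4.47, 14.9 and 10.3 CPM at 48 h. Of 17 glycolytic enzymes tested, 16 had a positive log2 fold change (52.4% of all genes), 3 were higher at an unadjusted p under 0.05 (2.89% of all genes), none was lower, and the median was 0.44, or 0.41 with 2 genes that have no count at one time set at their bound. With all libraries, 13 of 16 were positive and 2 were higher at that p, against 51.6% and 6.76% of all genes. None of the members of either list was called by edgeR with TMM scaling, with all libraries or without replicate 2.

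**Figure D2:**
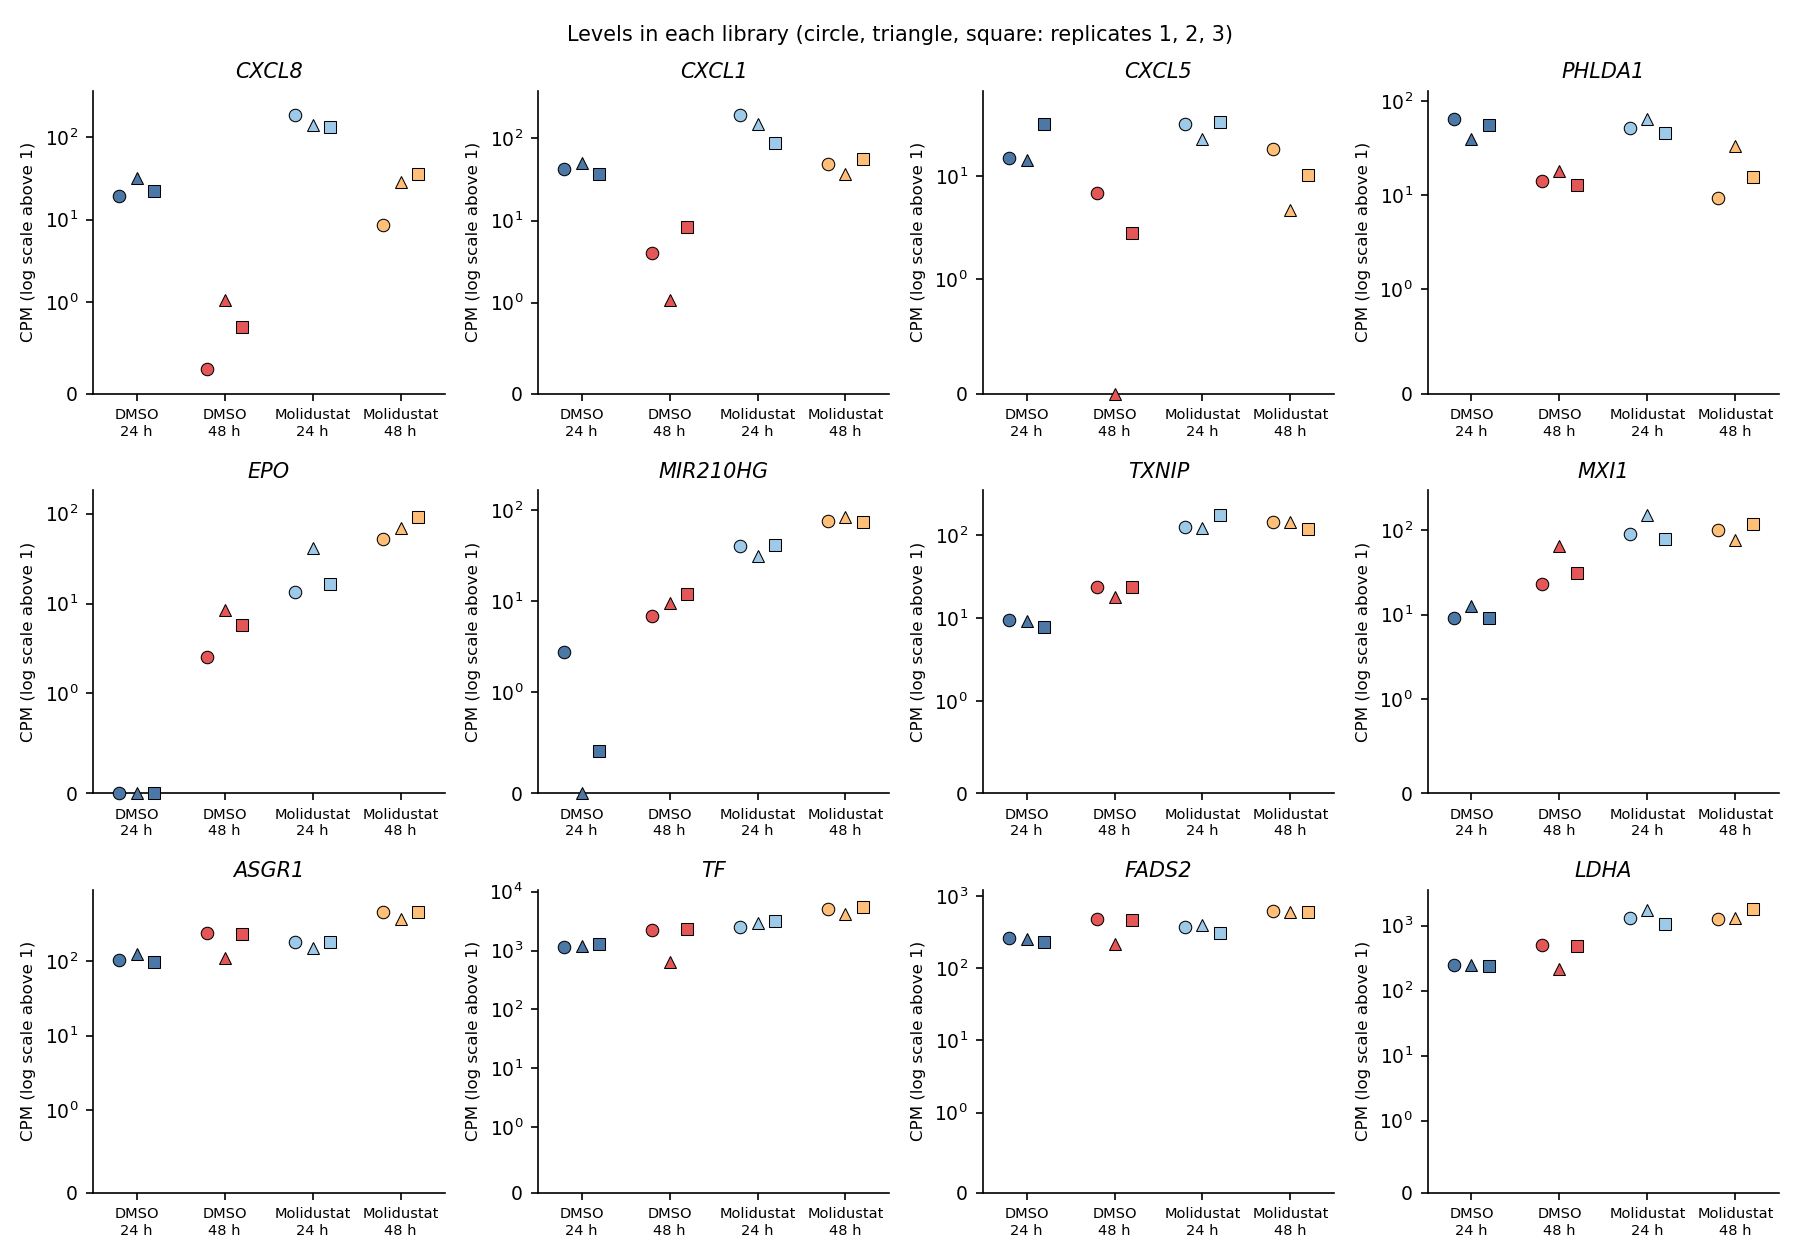
Level of 12 genes in each of the 12 libraries (y axis: TMM-scaled CPM, linear from 0 to 1 and logarithmic above; x axis: group; circle, triangle and square for replicates 1, 2 and 3, no means drawn). With DMSO, CXCL8 and CXCL1 lie lower in all libraries at 48 h (red) than at 24 h (dark blue), EPO lies at 0 in all 3 libraries at 24 h, and for ASGR1, TF, FADS2 and LDHA replicate 2 at 48 h lies with or below the 24 h libraries while replicates 1 and 3 lie above them.

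Among 27 hepatocyte secreted proteins tested, 14 had higher levels in replicates 1 and 3 at 48 h than in all libraries at 24 h. In the lower direction there were 2, against 13.4% of all genes higher and 9.49% lower. The 16 hepatocyte or hepatoma markers went both ways, with 7 higher and 3 lower. With replicate 2 included, 2 of the secreted proteins lay higher and 2 lower without overlap (5.75% and 6.19% of all genes). ASGR1, a subunit of the asialoglycoprotein receptor, was at 105, 126 and 95.8 CPM at 24 h and 242, 109.7 and 231 CPM at 48 h. Replicate 2 lay among the 24 h libraries, and the other libraries at 48 h lay far above them. The log2 fold change of ASGR1 was 1.15 ± 0.24 without replicate 2 (edgeR adjusted p = 0.274; DESeq2 adjusted p = 0.00289) and 0.84 ± 0.33 with it. TF, the plasma iron carrier transferrin, was at 1139.6, 1183 and 1303 CPM at 24 h and 2195, 636 and 2297 CPM at 48 h, for a log2 fold change of 0.92 ± 0.21 without replicate 2 and 0.50 ± 0.42 with it. ARG1, the last enzyme of the urea cycle, was at 5.05, 11.2 and 15.7 CPM at 24 h and 30.4, 14.9 and 37.5 CPM at 48 h, and replicate 2 again lay within the range of 24 h. AGT, the angiotensin precursor, and FGG, a fibrinogen chain, were exceptions in that all 3 libraries at 48 h lay above those at 24 h. AGT was at 282, 286 and 285 CPM at 24 h and 504, 488 and 473 CPM at 48 h, and FGG at 1001, 919 and 823 CPM at 24 h and 1349, 1322 and 1289.5 CPM at 48 h, with log2 fold changes of 0.81 ± 0.27 and 0.56 ± 0.22. ALB, albumin itself, was at 1852, 1875 and 1855 CPM at 24 h and 2482, 1264 and 2368 CPM at 48 h, for a log2 fold change of 0.41 ± 0.30.

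Of 27 hepatocyte secreted proteins tested, 20 had a positive log2 fold change without replicate 2, 6 were higher at an unadjusted p under 0.05 (2.89% of all genes), none was lower, and the median was 0.40. With all libraries, 17 were positive, 2 were higher and 1 was lower at that p, against 6.76% and 1.38% of all genes. None was called in either fit. The transcription factors of the hepatocyte had a median of 0.00 over 17 genes. HNF4A, the central one, was at 111, 225 and 768 CPM at 24 h and 70.5, 1237 and 209 CPM at 48 h, with a spread within each time that exceeded any difference between times. The keratins of simple epithelia had lower levels at 48 h, without a call. KRT8 was at 1455, 1285 and 978 CPM at 24 h and 719, 928 and 753 CPM at 48 h and its partner KRT18 at 2159, 1820.4 and 1312 CPM at 24 h and 1171, 350.3 and 1025 CPM at 48 h, lower in all libraries at 48 h, with log2 fold changes of -0.73 ± 0.27 and -0.66 ± 0.29. KRT19, the keratin of bile ducts, was at 62.7, 43.9 and 59.9 CPM at 24 h and 33.6, 2.13 and 32.4 CPM at 48 h, with replicate 2 far below the others. Among drug-metabolizing enzymes, SULT1A1, a sulfotransferase, was at 14.2, 22.3 and 21.9 CPM at 24 h and 36.7, 9.58 and 49.3 CPM at 48 h, with replicate 2 below the 24 h libraries and replicates 1 and 3 above them. UGT2B7, a glucuronosyltransferase, had no count at 24 h and 24, 0 and 12 counts at 48 h. That list had a median of 0.26 over 12 genes, with 2 higher at an unadjusted p under 0.05 (2.89% of all genes), and 1 of 11 with all libraries (6.76% of all genes).

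Genes of fatty acid synthesis mostly had positive values of modest size without replicate 2, none of them called. The summed level of the list was 2739, 2734 and 3783 CPM at 24 h and 4076, 16699 and 4554 CPM at 48 h. Replicate 2 lay far above the other 5 libraries, and replicates 1 and 3 at 48 h lay above those at 24 h. Most of the sum in replicate 2 came from 1 member, SCD, whose levels are given below with the cholesterol genes. FADS2 and FADS1 encode the delta-6 and delta-5 desaturases that make polyunsaturated fatty acids. FADS2 was at 262, 250.4 and 227 CPM at 24 h and 482, 214 and 458 CPM at 48 h, with replicate 2 the lowest of the 6 libraries, and FADS1 at 546, 652 and 768 CPM at 24 h and 1093, 1182 and 1207 CPM at 48 h, with all libraries at 48 h above those at 24 h. Their log2 fold changes without replicate 2 were 0.96 ± 0.22 (edgeR adjusted p = 0.479; DESeq2 adjusted p = 0.0137) and 0.84 ± 0.22. ACSS2, which makes acetyl-CoA from acetate, was at 5.51, 0.770 and 6.2 CPM at 24 h and 14.9, 19.2 and 15 CPM at 48 h, and FASN, the fatty acid synthase, at 118, 91.3 and 78.7 CPM at 24 h and 162, 116 and 149 CPM at 48 h. Of 15 fatty acid synthesis genes, 11 were positive, 4 were higher at an unadjusted p under 0.05 (2.89% of all genes) and the median was 0.38.

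The cholesterol genes also summed to a far higher level in replicate 2, at 8492, 9409.9 and 11355 CPM at 24 h and 10518, 50278 and 12655 CPM at 48 h, and replicate 3 at 24 h lay above replicate 1 at 48 h. Of 24 tested, 23 had a positive log2 fold change without replicate 2, 9 were higher at an unadjusted p under 0.05 (2.89% of all genes), none was lower, and the median was 0.41. With all libraries, 21 were positive, 4 were higher (6.76% of all genes) and 0 were lower at that p. None was called in either fit. INSIG1, which holds SREBP factors in the endoplasmic reticulum, was at 322, 240.4 and 342 CPM at 24 h and 526, 87.3 and 568 CPM at 48 h. It was lowest in replicate 2 and highest in replicates 1 and 3 at 48 h, and its log2 fold change without replicate 2 was 0.88 ± 0.27. FDPS, the farnesyl diphosphate synthase, was at 331, 364 and 290.4 CPM at 24 h and 510.5, 177 and 551 CPM at 48 h, in the same order. HMGCS1 and SCD, the other way round, were highest in replicate 2 and showed how far replicate 2 moves a value. SCD, the stearoyl-CoA desaturase, was at 1233, 1126 and 1969.9 CPM at 24 h and 1592, 13981 and 2103 CPM at 48 h, and its log2 fold change was 2.03 ± 0.65 with replicate 2 and 0.38 ± 0.29 without it. For HMGCS1 the values were 1.97 ± 0.70 and 0.05 ± 0.32.

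PHLDA1 and several targets of YAP and TEAD were among the genes with lower levels at 48 h. PHLDA1, a gene induced by growth factors, was at 63.6, 39.3 and 55.2 CPM at 24 h and 14.1, 18.1 and 12.9 CPM at 48 h, without overlap and with replicate 2 near the other libraries of its time. Its log2 fold change was -1.94 ± 0.45 without replicate 2 (edgeR adjusted p = 0.479; DESeq2 adjusted p = 0.014) and -1.84 ± 0.43 with it. ANKRD1 and CRIM1 are known targets of YAP and TEAD. ANKRD1 was at 14.7, 13.5 and 23.1 CPM at 24 h and 4.07, 3.19 and 2.2 CPM at 48 h, lower in all 3 libraries of that time, for a log2 fold change of -2.44 ± 0.71. CRIM1, which binds BMP ligands, was at 174, 149 and 192 CPM at 24 h and 74.3, 1288 and 84.5 CPM at 48 h, so that replicates 1 and 3 lay below and replicate 2 far above the 24 h libraries, and its direction turned on that library: -1.09 ± 0.29 without it and 1.48 ± 0.76 with it. BMP2, a ligand of the BMP family, was at 96.5, 77.0 and 139 CPM at 24 h and 32.9, 122 and 37.2 CPM at 48 h, and replicate 2 again lay with the 24 h libraries. Of 18 YAP and TEAD target genes, 5 were positive, 4 reached an unadjusted p under 0.05 as lower (1.13% of all genes), and the median was -0.28. None was called by edgeR, whereas DESeq2 without replicate 2 called CRIM1 lower (adjusted p = 0.0431).

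Immediate early genes, which serum and stress switch on within minutes, had a median of -0.32 over 15 genes, 3 of them positive, with 2 lower at an unadjusted p under 0.05 (1.13% of all genes). DUSP1, a phosphatase of MAP kinases, was at 96.9, 104 and 85.9 CPM at 24 h and 51.0, 12.8 and 48.3 CPM at 48 h and JUN, a subunit of AP-1, at 72.8, 71.6 and 63.4 CPM at 24 h and 47.0, 18.1 and 33.3 CPM at 48 h. In both genes all libraries at 48 h lay below all at 24 h, and replicate 2 was the lowest. CDKN1C, the cell cycle inhibitor p57, was at 19.3, 25.8 and 42.8 CPM at 24 h and 4.34, 2.13 and 11.6 CPM at 48 h, also without overlap, with a log2 fold change of -1.85 ± 0.58. Metallothioneins, which bind zinc and copper, were a list added after results were known. None of its 5 members tested was positive, 2 reached an unadjusted p under 0.05 as lower (1.13% of all genes), and the median was -1.49. MT1X was at 9.88, 12.7 and 17.1 CPM at 24 h and 3.12, 1.06 and 1.96 CPM at 48 h (log2 fold change -2.36 ± 0.62; edgeR adjusted p = 0.615; DESeq2 adjusted p = 0.0484), and MT2A was at 3.44, 4.62 and 9.09 CPM at 24 h and 1.08, 3.19 and 1.55 CPM at 48 h. These genes are close paralogs whose reads can be split. KLRK1-AS1, annotated as antisense to a gene of the natural killer receptor KLRK1, was at 25.7, 18.9 and 38.2 CPM at 24 h and 3.12, 0 and 5.17 CPM at 48 h. The strand setting of the counting is not given in the sources used here, so that its reads and those of overlapping genes on the other strand cannot be told apart.

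The rest of the 20 genes with the smallest p were of varied kinds. GJB1, the connexin that forms gap junctions between hepatocytes, was at 26.4, 22.7 and 27.1 CPM at 24 h and 77.9, 62.8 and 59.3 CPM at 48 h, with all libraries at 48 h above all at 24 h and a log2 fold change of 1.45 ± 0.32 (edgeR adjusted p = 0.439; DESeq2 adjusted p = 0.0431). OLMALINC, a long non-coding RNA, was at 161, 111 and 107 CPM at 24 h and 237, 799.5 and 333 CPM at 48 h, with replicate 2 the highest. LGSN, a glutamine synthetase-like protein, was at 6.89, 18.1 and 14.3 CPM at 24 h and 40.4, 57.5 and 34.0 CPM at 48 h, also without overlap. PDGFRL, a PDGF receptor-like protein, was at 3.67, 1.54 and 1.24 CPM at 24 h and 15.3, 1.06 and 16.9 CPM at 48 h, for a log2 fold change of 2.90 ± 0.54, and CCDC183 was at 2.99, 3.47 and 2.48 CPM at 24 h and 18.3, 1.06 and 7.34 CPM at 48 h. In both, replicate 2 had the lowest level of the 6 libraries, unlike replicates 1 and 3, which were the highest. DDIT4, a stress-induced inhibitor of mTORC1, was at 16.5, 12.3 and 18.8 CPM at 24 h and 39.2, 4.26 and 41.7 CPM at 48 h, with the same order. LINC02882 had 1, 0 and 0 counts at 24 h and 35, 3 and 61 counts at 48 h.

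The medians of the cell cycle and growth restraint lists lay near the all-gene median in the fit without replicate 2. Those of the stress response and chaperone lists were somewhat higher in that fit. Across scalings, with and without replicate 2, the sign of the median changed for the cell cycle, integrated stress response and heat shock lists. The 40 cell cycle genes tested had a median of 0.05, with none at an unadjusted p under 0.05. CCND1, cyclin D1, was at 474, 639.8 and 674 CPM at 24 h and 485, 796 and 491 CPM at 48 h, with overlap, and MCM7, a subunit of the replicative helicase, was at 159, 114 and 125 CPM at 24 h and 176, 189.5 and 168 CPM at 48 h. The CDK inhibitors and growth restraint list had a median of -0.05 over 19 genes, with members that went both ways, from -1.85 to 0.80. Without overlap between times, 3 were higher and 6 lower (13.4% and 9.49% of all genes). At an unadjusted p under 0.05, 1 was higher and 1 lower (2.89% and 1.13% of all genes). With all libraries, 2 were higher and 3 lower at that p (6.76% and 1.38% of all genes). Amino acid and integrated stress response genes had a median of 0.19 over 30 genes, 3 of them higher at an unadjusted p under 0.05 (2.89% of all genes). Among these, PHGDH, the first enzyme of serine synthesis, was at 58.8, 56.2 and 46.7 CPM at 24 h and 85.4, 90.5 and 126 CPM at 48 h, without overlap, with a log2 fold change of 1.0 ± 0.28. Chaperones of the endoplasmic reticulum had a median of 0.22 over 18 genes (2 higher at that p), and cytosolic heat shock proteins one of 0.14 over 14 genes.

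Cytosolic ribosomal proteins had mostly negative values of small size: 18 of 78 had a positive log2 fold change without replicate 2, the median was -0.33, and 3 reached an unadjusted p under 0.05 as lower, against 1.13% of all genes. Their share of counts was 2.05, 2.18 and 2.95% at 24 h and 1.82, 1.37 and 2.31% at 48 h, with overlap between times. RPS16, of the small subunit, was at 384, 446 and 851 CPM at 24 h and 212, 465 and 345 CPM at 48 h, and replicate 3 at 24 h was the highest library. Transcripts of the mitochondrial genome had a median of 0.14 over 15 genes, and the nuclear subunits of the respiratory chain one of -0.13 over 38 genes. Interferon-stimulated genes had a median of -0.15 over 18 genes, with 2 higher at an unadjusted p under 0.05 (2.89% of all genes). NRF2 target and antioxidant genes had a median of 0.01 over 21 genes, nuclear-retained and other long non-coding RNAs one of 0.01 over 17, and glucose-responsive genes, TXNIP among them, one of 0.00 over 5.

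With replicate 2 included, some of these medians moved and others did not. The median was 0.43 over 27 hypoxia-inducible genes (7 higher and 0 lower at an unadjusted p under 0.05, against 6.76% and 1.38% of all genes), 0.46 over 16 glycolytic enzymes, 0.36 over 24 cholesterol genes, 0.57 over 15 fatty acid synthesis genes and 0.16 over 27 hepatocyte secreted proteins. It was -1.38 over 11 chemokines, -1.61 over 4 metallothioneins, -0.22 over 18 YAP and TEAD target genes, -0.29 over 15 immediate early genes and -0.30 over 77 ribosomal proteins. These 10 lists kept the sign of their median with RLE factors and with total counts in place of TMM, with and without replicate 2. Across the same settings the median changed sign for the HIF subunits (0.70 with replicate 2), NRF2 targets (-0.17), cell cycle genes (-0.12), heat shock proteins (-0.06), glucose-responsive genes (-0.32), hepatocyte transcription factors, the mitochondrial genome (-0.15), long non-coding RNAs, the integrated stress response (-0.03 with total counts) and the marker list of hepatocytes, so no direction is given for these.

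The Molidustat libraries give a second view of 48 h against 24 h, from separate libraries of the same line. In the fit without DMSO 48 h replicate 2, 4 genes were called between times with Molidustat (0.0262%): HAL and ASGR1 rose, and CXCL8 and a gene given only as ENSG00000257764 fell. With all libraries in the fit, 0 genes were called with Molidustat. CXCL8 was at 184, 141 and 134 CPM at 24 h and 8.54, 28.7 and 35.7 CPM at 48 h with Molidustat, a log2 fold change of -2.65 ± 0.41 (edgeR adjusted p = 0.0427). It was thus lower at 48 h than at 24 h with either addition, at a higher level with Molidustat than with DMSO at the same time. ASGR1 was at 181, 151 and 181 CPM at 24 h and 457, 368 and 451 CPM at 48 h, a log2 fold change of 1.32 ± 0.22 (edgeR adjusted p = 0.0469). CXCL1 was at 192, 149.7 and 88.3 CPM at 24 h and 48.5, 36.9 and 56.0 CPM at 48 h, for a log2 fold change of -1.60 ± 0.32, not called by edgeR but called by DESeq2 without DMSO 48 h replicate 2 (adjusted p = 0.00239).

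Of the 614 genes with an unadjusted p under 0.05 with DMSO, 476 (77.5%) had the same direction with Molidustat, against 8783 of all 15253 genes (57.6%), and 161 (26.2%) also had an unadjusted p under 0.05 there, against 1060 of all genes (6.95%). With DMSO 48 h replicate 2 included, 512 of 1162 such genes (44.1%) had the same direction, against 48.6% of all 14274 genes. Among the 1162, 71 (6.11%) also had an unadjusted p under 0.05 there, against 2.80% of all genes. Like directions were found for 39.0% of the higher and 69.0% of the lower genes with that library, and for 75.3% and 83.2% without it. The share of like directions thus depended on that library, more so for the higher genes. Of the 20 genes with the smallest p, 18 had the same direction with Molidustat. Several genes are given side by side, DMSO first. The log2 fold changes were 1.45 and 1.42 for GJB1, -1.94 and -1.51 for PHLDA1, -1.55 and -1.72 for BMP2 and -2.36 and -2.24 for MT1X. For these 4 genes the values had the same sign.

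For several genes tied to glucose or HIF, the values with Molidustat stood at another level. TXNIP was at 125, 125 and 177 CPM at 24 h and 147, 145 and 120.5 CPM at 48 h with Molidustat, a log2 fold change of -0.05 beside 1.46 with DMSO. LDHA had 0.09 beside 1.03, at 1288, 1762 and 1037 CPM at 24 h and 1281, 1282 and 1790.4 CPM at 48 h. EPO was at 13.6, 41.4 and 16.3 CPM at 24 h and 52.8, 69.9 and 91.9 CPM at 48 h, above every DMSO library. The glycolytic list had a median of -0.09 with Molidustat and 0.44 with DMSO, the hypoxia-inducible list 0.10 and 0.50, and the hepatocyte secreted proteins 0.46 and 0.40. In the fit without replicate 2, the test of the difference between both time changes called no gene (0.0% of 15253, edgeR interaction, smallest adjusted p = 0.999792). Of these 15253 genes, 487 had an unadjusted p under 0.05, and DESeq2 called 1 gene. This edgeR fit thus gave no gene whose time change differed between DMSO and Molidustat. For CXCL8, its interaction was -2.81 ± 0.75 on the log2 scale (unadjusted p = 0.00153). With all libraries and no filter on low counts, genes were called (edgeR interaction, smallest adjusted p = 7.04e-09).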

How the data were processed

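The deposited files of 12 libraries hold counts of reads per gene. The authors prepared the libraries with the QIAseq UPX 3′ kit and sequenced them on a NextSeq 500. The submitters' processing notes name bcl2fastq 2.17.1.14, cutadapt 1.9.1, STAR 2.7.9a, HTSeq 0.11.2, DESeq2 1.26.0 and the GRCh38 build. The annotation release, the strand setting and the use of molecular identifiers in the counting are not given in the sources used here, so that duplicates from amplification may be among the counts, and floors cover counting error only. Antisense genes and paralogs are features that these settings could affect.

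The 5 summary lines of each file entered neither library sizes nor tests. One of them repeats the value of another in every file and was counted once. Reads on no gene were 19.4% to 25.2% of the listed reads in 5 DMSO libraries and 50.4% in DMSO 48 h replicate 2. Of 60666 genes listed, 60437 have an entry in GENCODE release 44 (GRCh38), from which names and coordinates came. Counts on genes ran from 1499273 to 9179389 per DMSO library, and 20 CPM was worth 18.8 counts in the shallowest.

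All 12 libraries entered 1 edgeR 4.0.16 quasi-likelihood fit (R 4.3.3) on the deposited counts, with TMM factors, filterByExpr (minimum count 10, minimum total 15) and Benjamini-Hochberg adjustment, and the contrast of DMSO 48 h with DMSO 24 h was tested. The same fit was made without DMSO 48 h replicate 2. The study states no test of time, and its thresholds (adjusted p under 0.05, log2 fold change beyond 1) were used. The p-values printed with edgeR and DESeq2 are from these fits, and errors of log2 fold changes are SEs from edgeR. Alternatives were DESeq2 1.42.0, limma 3.58.1 (voom with sample quality weights), RLE factors, total counts, other filters, DMSO libraries alone, a replicate block, thinning to the smallest library and each library left out in turn. The scripts were tested on simulated data.

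Genes named are the 20 with the largest mean share of counts, those called in either fit, the up to 4 members of each list with the smallest p, and the 10 genes in each direction farthest from the rest in DMSO 48 h replicate 2. The 20 genes with the smallest p were added after the data were seen, as were the lists of chemokines, NF-κB response genes and metallothioneins. Some genes that these rules name are not reported here. NFKBIA, VEGFA, ALB, CXCL2, CXCL16 and CXCL10 were named after their values were seen. The libraries and all lists were chosen with earlier results of these data known. Promoter sequences are from RefSeq (GRCh38.p14).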

Additional observations from a re-analysis of the deposited data

Results flagged for a closer look

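In DMSO 48 h replicate 2, reads on no annotated gene made up 50.4% of the reads listed in its file, a line of the file that the comparisons do not use. The same line held 17.1% to 25.6% in the other 11 libraries. The cause was not tested. Groups of 3 libraries were not tested for a single outlying library.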

How the results depend on the processing

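With DMSO, 0 genes were called higher and 1 lower by edgeR. The counts higher and lower were 30 and 8 by DESeq2, 10 and 8 by DESeq2 without DMSO 48 h replicate 2, 387 and 13 with no filter on low counts, and 1 and 2 with total counts. The genes called lower numbered 2 by limma-voom (PHLDA1 and CXCL1), 2 with RLE factors and 2 with total counts without replicate 2, and 0 with at least 10 counts in every library, with DMSO libraries alone or with thinning to the smallest library. Leaving out each library in turn gave 0 to 1 higher (MIR210HG without DMSO 24 h replicate 1, EPO without DMSO 48 h replicate 1) and 1 to 2 lower. With Molidustat, 0 were called in either direction; the counts higher and lower were 7 and 5 by DESeq2, 46 and 48 by DESeq2 without replicate 2, 1 and 3 with no filter, 2 and 3 with RLE factors without replicate 2, 1 and 1 with total counts without it, 1 lower by limma-voom, and 0 to 2 in each direction with a library left out. The interaction called 0 genes, and 4 by DESeq2, 1 by DESeq2 without replicate 2 and 321 with no filter. Causes were not tested, other than that fewer samples or genes enter some fits.

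Of the 35 genes examined over 26 alternatives (896 values), 836 kept direction and side of the threshold, 50 newly passed it, 3 no longer did (CXCL8 by limma-voom, with DMSO libraries alone and with thinning), and 7 reversed, all of CRIM1: from 1.48 with all libraries (1.31 to 1.92 with another library left out) to -1.09 without replicate 2, -1.13 by DESeq2 without it, -0.93 by limma-voom, -1.11 with DMSO libraries alone without it, -1.06 with the replicate block without it, -1.13 with RLE factors and -1.09 with total counts without it. The sign thus turned on replicate 2. Total counts moved the median of all genes to -0.13 with replicate 2. The replicate numbers did not pair the samples. Correlations of same-numbered deviations ran from -0.09 to 0.10 between the DMSO groups. Over all groups they ran from -0.09 to 0.14, and those of other pairs from -0.16 to 0.14. The replicate block gave 0 genes higher and 1 lower, with or without replicate 2. The RLE and total-count fits without replicate 2 were added after seeing the data. Depth limits genes near 1 CPM, which is about 1 count in the shallowest library.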

Other observations

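Genes far from their group in DMSO 48 h replicate 2 were of mixed kinds. Those farthest above the other libraries included RN7SL827P, OXER1, TMEM150C, ALOX15P1, GDPGP1, LYG2, TAT, ZNF121 and CTNNB1. OXER1, a receptor for oxidized eicosanoids, was at 1.61, 6.55 and 3.51 CPM at 24 h and 9.49, 300.2 and 4.96 CPM at 48 h. TAT, the tyrosine aminotransferase of hepatocytes, was at 0.919, 6.93 and 1.65 CPM at 24 h and 1.49, 51.1 and 2.27 CPM at 48 h, and GDPGP1, a GDP-glucose phosphorylase, at 3.67, 15 and 48.3 CPM at 24 h and 14.4, 492 and 26.8 CPM at 48 h. The farthest below, all with no count in replicate 2, included AGPAT5, CCDC82, FAM174C, TOR3A, KIFBP, P3R3URF-PIK3R3, MATN3, DPH7 and AMN1. MATN3, a matrix protein of cartilage, was at 62.5, 62.8 and 38.8 CPM at 24 h and 37.7, 0 and 23.7 CPM at 48 h.

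For some of these genes DMSO 24 h replicate 3 was the next highest library. CTNNB1, which encodes β-catenin, was at 78.8, 321 and 866 CPM at 24 h and 109, 4115 and 315 CPM at 48 h, and CALR, the chaperone calreticulin, at 269, 368 and 1294 CPM at 24 h and 184, 2678 and 549 CPM at 48 h. HNF4A and the ribosomal protein gene RPS25 (138, 186 and 474 CPM at 24 h and 63.8, 635 and 173 CPM at 48 h) had the same order of these 2 libraries. These genes were picked after their values were seen.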
